A study of Mus musculus with 6 samples.

Results

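The gene group described here comprised 8 genes of the bone-resorbing osteoclast and of the RANKL axis that controls it: *Acp5*, *Ctsk*, *Mmp9*, *Dcstamp*, *Tnfsf11*, *Tnfrsf11a*, *Tnfrsf11b* and *Csf1*. They were taken by gene symbol from a table of 44788 symbols, and all 8 were found there. The group was chosen by the CPM of *Acp5*, which was already known to be higher in knockout tendon, so the values of *Acp5* are a description with no test. RNA sequencing of whole tail tendon was compared between 3 libraries from wild-type (WT) C57BL/6 mice and 3 libraries from C57BL/6 mice with both copies of *Mkx*, the gene of the tendon transcription factor Mohawk, inactivated (*Mkx*-/-). The labels give an age of 3 weeks for every mouse, no treatment was applied, and the study's text gives a slightly older age. Neither the labels nor the study's text say how many animals went into a library or how the *Mkx* allele was made, so p-values measure the spread between these libraries. The study used these mice as a model of tendon heterotopic ossification, the formation of bone inside a tendon.

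Osteoclasts are large cells with several nuclei that form by fusion of precursors of the monocyte and macrophage lineage. Their precursors need macrophage colony-stimulating factor (M-CSF, encoded by *Csf1*), which acts through the receptor encoded by *Csf1r*, and RANKL (*Tnfsf11*), which acts through RANK (*Tnfrsf11a*). Osteoprotegerin (OPG, *Tnfrsf11b*) is a secreted decoy receptor that binds RANKL and keeps it from RANK. Mature osteoclasts make tartrate-resistant acid phosphatase (*Acp5*), the collagen-cleaving protease cathepsin K (*Ctsk*) and gelatinase B (*Mmp9*), and DC-STAMP (*Dcstamp*) is needed for their fusion. Several of these genes are not restricted to osteoclasts: fibroblasts can make cathepsin K, and neutrophils store the Mmp9 protein.

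The libraries held between 10835070 and 14160301 counts. Counts were scaled with TMM normalization to normalized CPM, which are counts per gene brought to the same library total, and 14550 genes had enough counts to be compared with edgeR's quasi-likelihood test. A gene passed the test at a Benjamini-Hochberg adjusted p under 0.05 over all these genes. Of the tested genes, 3.18% passed as higher and 2.26% as lower in *Mkx*-/- tendons (463 and 329 genes, against 1358 and 197 when scaled by library size alone). With DESeq2 these shares were 5.41% and 4.04%, and 12.5% and 10.1% of the genes had an edgeR p under 0.05 before adjustment, the background for the counts of this kind given for gene lists. All 8 tendon markers examined were detected in every library. Their summed level, mostly *Col1a1* and *Col1a2*, was 377279 to 520819 CPM in WT and 240665 to 335329 CPM in *Mkx*-/- tendons, which did not overlap. *Mkx* itself had 135 to 144 CPM in the WT libraries and 38.9 to 56.8 CPM in the *Mkx*-/- libraries, which did not overlap. Counts of *Xist* and *Ddx3y* marked WT replicate 3 as a male library and the other 5 as female. The fits did not include sex. The fit without WT replicate 3, given below for single genes, is the one that compares female libraries only. WT replicate 1 and *Mkx*-/- replicate 2 stood apart in the level of neutrophil markers, described beside *Mmp9* below. Of the 8 genes, 6 passed the filter on low counts, and *Tnfsf11* and *Dcstamp* did not.

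*Acp5* had the largest difference of the group. Its level was 4.49, 5.01 and 4.73 CPM in the WT libraries and 21.5, 25.4 and 20.1 CPM in the *Mkx*-/- libraries. Every *Mkx*-/- library was above every WT library, and the mean rose from 4.74 ± 0.258 to 22.3 ± 2.78 CPM (SD, n = 3 each). The log2 fold change was 2.24 (standard error, SE, 0.15), a 4.71-fold higher level, and it lay between 2.13 and 2.31 when any single library was left out. As counts, *Acp5* had 51 to 59 reads in the WT libraries and 235 to 362 in the *Mkx*-/- libraries. In a bulk sample, a change in the number of cells of a type and a change in RNA per cell cannot be told apart.

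**Figure D1:**
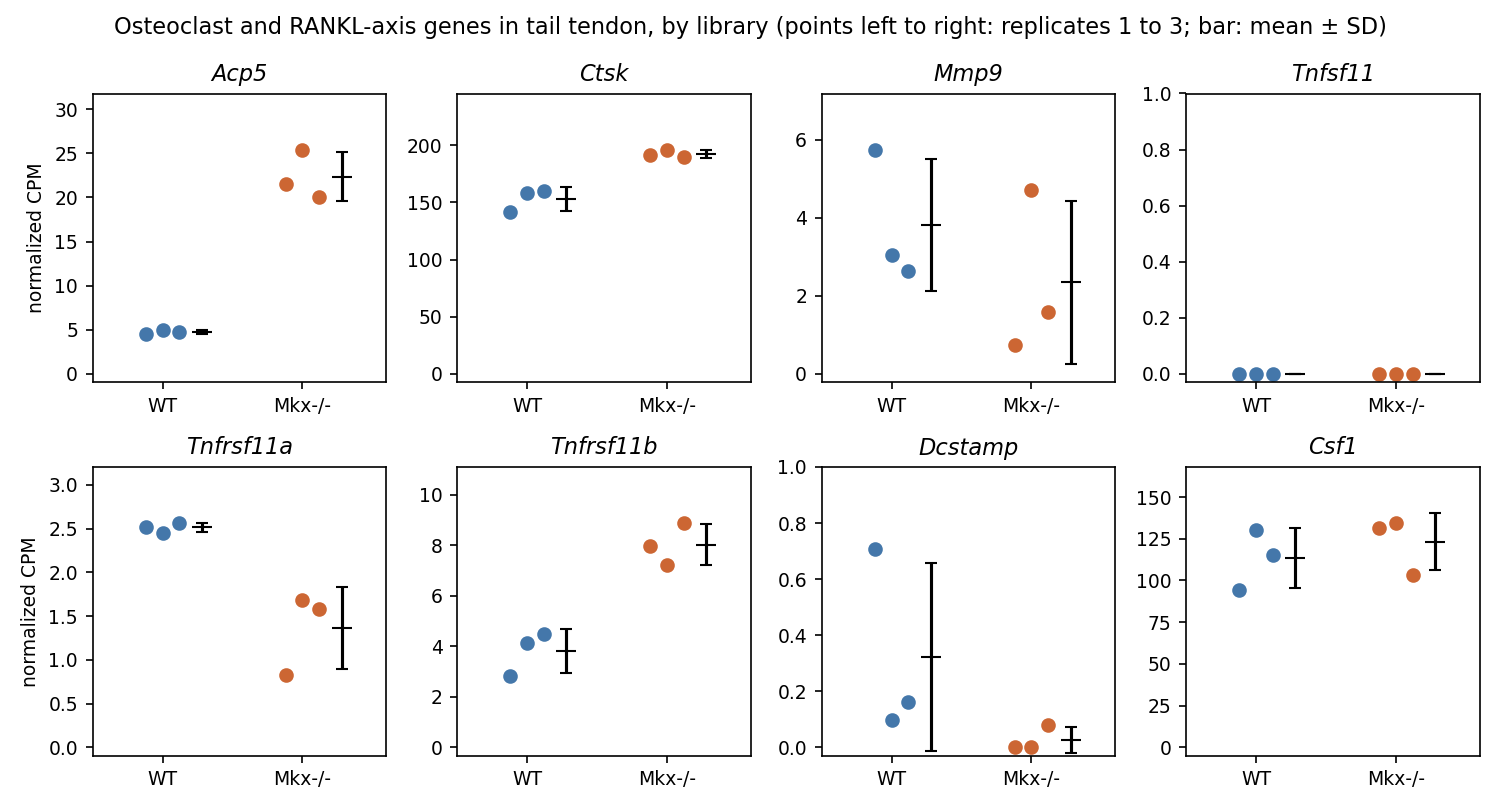
Normalized CPM of the 8 genes (vertical axes, each from 0) in the 3 WT and 3 Mkx-/- libraries (points, replicates 1 to 3 from left to right), with the mean ± SD beside them. Acp5 lies between 4.49 and 5.01 CPM in WT and between 20.1 and 25.4 CPM in Mkx-/- tendons, Tnfrsf11b is also separate and higher, Tnfrsf11a is separate and lower, and Tnfsf11 is at 0 in every library.

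The *Acp5* gene occupies positions 21931175 to 21940190 of chromosome 9 in mm9, read from the minus strand, with 3 annotated transcripts that begin at 3 different starts and no overlapping gene in that annotation. The deposited counts sum all of its transcripts, so they do not show which start the additional reads came from. The 3 starts listed by RefSeq for GRCm38.p6, another build than the mm9 of the counts, are shown because these are the sequences between which the counts cannot distinguish. Each window runs from 250 bases before the start to 50 after it, 5′ to 3′ on the minus strand of GRCm38.p6, and capitals mark the match to an M-box core, a site bound by the osteoclast factor MITF.
Distal start (chr9:22135697-22135996): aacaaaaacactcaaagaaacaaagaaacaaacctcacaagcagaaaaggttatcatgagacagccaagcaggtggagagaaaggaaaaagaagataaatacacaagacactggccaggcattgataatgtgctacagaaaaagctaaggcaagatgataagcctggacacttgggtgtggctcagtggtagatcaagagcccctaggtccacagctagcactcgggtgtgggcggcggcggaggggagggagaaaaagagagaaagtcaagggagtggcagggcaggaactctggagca
Middle start (chr9:22131816-22132115): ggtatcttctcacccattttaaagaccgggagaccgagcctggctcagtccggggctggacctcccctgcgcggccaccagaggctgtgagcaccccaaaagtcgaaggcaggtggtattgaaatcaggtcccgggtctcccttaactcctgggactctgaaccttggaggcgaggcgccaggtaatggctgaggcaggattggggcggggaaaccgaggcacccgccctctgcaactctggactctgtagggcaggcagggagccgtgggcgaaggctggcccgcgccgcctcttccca
Proximal start (chr9:22130549-22130848): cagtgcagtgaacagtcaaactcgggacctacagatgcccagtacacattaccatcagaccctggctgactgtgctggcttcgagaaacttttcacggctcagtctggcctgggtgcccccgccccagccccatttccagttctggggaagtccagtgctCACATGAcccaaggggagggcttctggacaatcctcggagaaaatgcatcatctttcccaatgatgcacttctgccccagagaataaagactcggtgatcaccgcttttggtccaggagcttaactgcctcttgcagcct

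The M-box core (TCATGTG, or CACATGA on the other strand) matched once, in the window of the proximal start, with its first base at position -90 from the start. It was present in 3.77% of the 32851 promoter windows of the same length. An AP-1 site (TGANTCA on either strand), found in 7.81% of all windows, matched none of the 3 *Acp5* windows. The NFAT core (GGAAA, or TTTCC on the other strand), found in 61.3% of all windows, matched at position -167 of the distal window, at -41 of the middle one, and at -117 and -37 of the proximal one. None of these motifs overlapped another where they matched. The factors of these motifs were measured in the same libraries: *Mitf* had 5.89 to 20.4 CPM in WT and 6.66 to 9.63 CPM in *Mkx*-/- tendons (log2 fold change -0.59, SE 0.42, edgeR adjusted p = 0.454), and *Nfatc1* had 44.1 to 73.8 and 56.7 to 106 CPM (0.38, SE 0.26, edgeR adjusted p = 0.441).

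The 2 matrix-degrading members, *Ctsk* and *Mmp9*, differed from *Acp5* in size or direction. *Ctsk*, on chromosome 3 from 95303208 to 95313284, was at 141, 159 and 160 CPM in the WT libraries and at 191, 196 and 190 CPM in the *Mkx*-/- libraries. The groups did not overlap, but the level was 1.26-fold that of WT (log2 fold change 0.33, SE 0.11), and the difference did not pass the test (edgeR adjusted p = 0.135, DESeq2 0.112). Groups separated in this direction were found in 14.6% of all tested genes. The count ratio of *Acp5* to *Ctsk* within a library, which needs no scaling between libraries, was 0.0310 ± 0.00127 in WT and 0.116 ± 0.0124 in *Mkx*-/- tendons (SD, n = 3 each).

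*Mmp9*, on chromosome 2 from 164766280 to 164781350, was at 5.75, 3.04 and 2.64 CPM in the WT libraries and at 0.733, 4.71 and 1.59 CPM in the *Mkx*-/- libraries. The groups overlapped, and the log2 fold change of -0.67 (SE 0.59) did not pass the test (edgeR adjusted p = 0.550). WT replicate 1 and *Mkx*-/- replicate 2 were the highest of their groups. The same libraries stood out for 11 neutrophil markers, such as *S100a9*, *Ngp* and *Mpo*, whose summed level was 27.5, 3.93 and 1.84 CPM in WT replicates 1 to 3 and 1.19, 40.6 and 1.03 CPM in *Mkx*-/- replicates 1 to 3. Without these 2 libraries, *Mmp9* had 3.04 and 2.64 CPM in WT and 0.733 and 1.59 CPM in *Mkx*-/- tendons, and its log2 fold change was -1.26 (edgeR adjusted p = 0.157). Without *Mkx*-/- replicate 2 alone it was -1.69, and without WT replicate 1 alone -0.24.

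**Figure D2:**
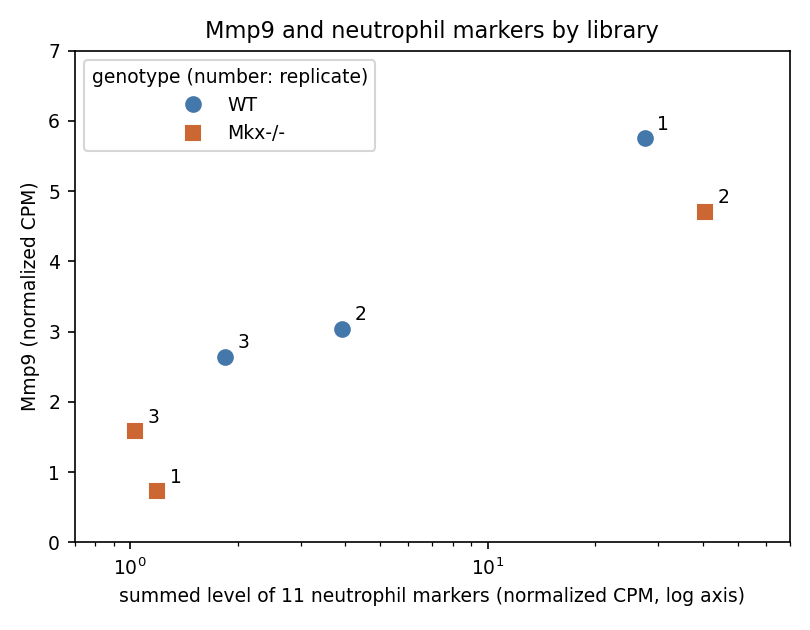
Mmp9 in normalized CPM (vertical axis, from 0) against the summed normalized CPM of 11 neutrophil markers (horizontal axis, log scale) in each library, circles for WT and squares for Mkx-/-, numbered by replicate. WT replicate 1 and Mkx-/- replicate 2 lie at 27.5 and 40.6 CPM of neutrophil markers and have the highest Mmp9 levels, 5.75 and 4.71 CPM.

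The fusion gene *Dcstamp* (named *Tm7sf4* in the mm9 annotation, chromosome 15 from 39577478 to 39592480) was counted 9, 1 and 2 times in the WT libraries and 0, 0 and 1 times in the *Mkx*-/- libraries. Summed over the libraries, the depth-scaled ratio of *Mkx*-/- to WT was 0.0780, with an exact 95% interval of 0.00183 to 0.527 that covers counting error only. Most of its WT reads came from WT replicate 1, where neutrophil markers were also high. Without it the WT count was 3, and the ratio was 0.200 with an interval of 0.00381 to 2.49, which includes no difference.

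The ligand of the axis was not detected. *Tnfsf11* (RANKL), on chromosome 14 from 78677252 to 78707850, had 0 counts in all 6 libraries. At this depth a count of 0 allows up to 3 counts, which is 0.211 to 0.294 CPM in a single library, and 0.0848 CPM over the WT and 0.0794 CPM over the *Mkx*-/- libraries together. A difference in RANKL between the genotypes was therefore not detectable, and no RANKL to OPG ratio could be formed.

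The receptor of the ligand was present at a low level. *Tnfrsf11a* (RANK), on chromosome 1 from 107677300 to 107744558, was at 2.52, 2.45 and 2.56 CPM in the WT libraries and at 0.824, 1.69 and 1.59 CPM in the *Mkx*-/- libraries, from 25 to 32 and from 9 to 24 counts. Each *Mkx*-/- library was below each WT library, as were those of 13.6% of all tested genes. The log2 fold change of -0.86 (SE 0.32) did not pass the test (edgeR adjusted p = 0.159, DESeq2 0.244). It was most negative without *Mkx*-/- replicate 2 (-1.04) and least without *Mkx*-/- replicate 1 (-0.64).

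*Tnfrsf11b* (OPG), the decoy receptor, rose. It lies on chromosome 15 from 54082174 to 54110039, and had 2.84, 4.12 and 4.49 CPM in the WT libraries and 7.97, 7.24 and 8.88 CPM in the *Mkx*-/- libraries. The groups did not overlap, and the mean went from 3.81 ± 0.867 to 8.03 ± 0.823 CPM (SD, n = 3 each). The log2 fold change was 1.07 (SE 0.22, edgeR adjusted p = 0.0310, DESeq2 0.00455). It also met an added requirement of a log2 fold change above 1, as did 1.89% of all tested genes, with 1.33% below -1 in the other direction. The fold change stayed between 0.89 and 1.20 when any 1 library was left out, but with 5 libraries the adjusted p from edgeR passed the threshold only without WT replicate 1 (0.0375). It was 0.0895 without WT replicate 2, 0.0677 without WT replicate 3, and 0.0719, 0.0703 and 0.104 without *Mkx*-/- replicates 1, 2 and 3.

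*Csf1* (M-CSF), on chromosome 3 from 107543966 to 107563387, was among the abundant members, at 94.5, 130 and 115 CPM in the WT libraries and at 132, 134 and 103 CPM in the *Mkx*-/- libraries. The groups overlapped, and the log2 fold change of 0.12 (SE 0.16) did not pass the test (edgeR adjusted p = 0.715). Thus, of the 5 members tested, *Tnfrsf11b* was the only one past the threshold with edgeR, where 5.44% of all tested genes passed in either direction, and it was also the only one with DESeq2.

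Levels of different genes were compared per kilobase of exon. In WT tendons, normalized CPM per kilobase was 103 ± 7.10 for *Ctsk*, 21.5 ± 3.42 for *Csf1*, 2.94 ± 0.160 for *Acp5*, 1.35 ± 0.308 for *Tnfrsf11b*, 1.08 ± 0.478 for *Mmp9*, 0.500 ± 0.0110 for *Tnfrsf11a* and 0.162 ± 0.169 for *Dcstamp* (SD, n = 3 each), with *Tnfsf11* at 0. *Tnfrsf11b* and *Mmp9* were neighbours that did not differ beyond their spread. In *Mkx*-/- tendons the order was kept, with *Acp5* at 13.9 ± 1.72 and *Tnfrsf11b* at 2.85 ± 0.292 CPM per kilobase, while *Mmp9* (0.662 ± 0.591) and *Tnfrsf11a* (0.272 ± 0.0938) did not differ beyond their spread. Cathepsin K transcripts thus remained far above those of *Acp5* in both genotypes.

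The rest of the osteoclast program was read from a list of 18 resorption and fusion genes other than *Acp5*, 3 of them members. Of these, 12 could be tested and 0 passed with edgeR. Their median log2 fold change was 0.051, against -0.0037 over all tested genes, with 6 above 0 and 6 below, or 10 and 2 when scaled by library size alone. Before adjustment, p was under 0.05 for 2 higher and 1 lower gene, and DESeq2 passed 1 as higher and 1 as lower. *Itgb3*, the β3 chain of the osteoclast vitronectin receptor, which platelets and endothelial cells also carry, had 8.43, 12.3 and 9.13 CPM in WT and 17.7, 13.2 and 21.8 CPM in *Mkx*-/- tendons (log2 fold change 0.82, SE 0.22, edgeR adjusted p = 0.0723, DESeq2 0.0230). *Snx10*, a sorting nexin that osteoclasts need, was chosen for mention after its values were seen. It had 12.5 to 21.8 CPM in WT and 6.50 to 8.71 CPM in *Mkx*-/- tendons (log2 fold change -1.01, SE 0.24, edgeR adjusted p = 0.0520, DESeq2 0.00548). Genes of acid secretion did not pass, with a log2 fold change of -0.14 for *Tcirg1*, a subunit of the osteoclast proton pump, 0.24 for the chloride transporter gene *Clcn7* and 0.40 for its partner *Ostm1* (edgeR adjusted p = 0.559, 0.298 and 0.237).

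Of 8 markers chosen as defining an osteoclast, 3 could be tested, *Nfatc1*, *Itgb3* and *Tnfrsf11a*, with the values given above, and 0 passed with edgeR. Before adjustment, p was under 0.05 for 1 higher and 1 lower gene, and DESeq2 passed 1 as higher. The summed level of the list, mostly *Nfatc1* and *Itgb3*, which other cells also express, was 56.3 to 90.1 CPM in WT and 72.9 to 130 CPM in *Mkx*-/- tendons. The other 5, *Dcstamp* among them, were at or near 0 in both genotypes. The calcitonin receptor gene *Calcr* had 0 counts in every library. The receptor gene *Oscar* had 0 to 7 counts in the WT and 0 to 6 in the *Mkx*-/- libraries, the fusion gene *Ocstamp* 1 to 6 and 1 to 5, and *Atp6v0d2*, an osteoclast proton pump subunit, 3 to 5 and 1 to 9. Depth-scaled ratios of *Mkx*-/- to WT were 0.749 for *Oscar* (exact 95% interval 0.257 to 2.11), 0.780 for *Ocstamp* (0.302 to 1.97) and 1.01 for *Atp6v0d2* (0.427 to 2.43). Which cells the *Acp5* reads came from was not tested.

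**Figure D3:**
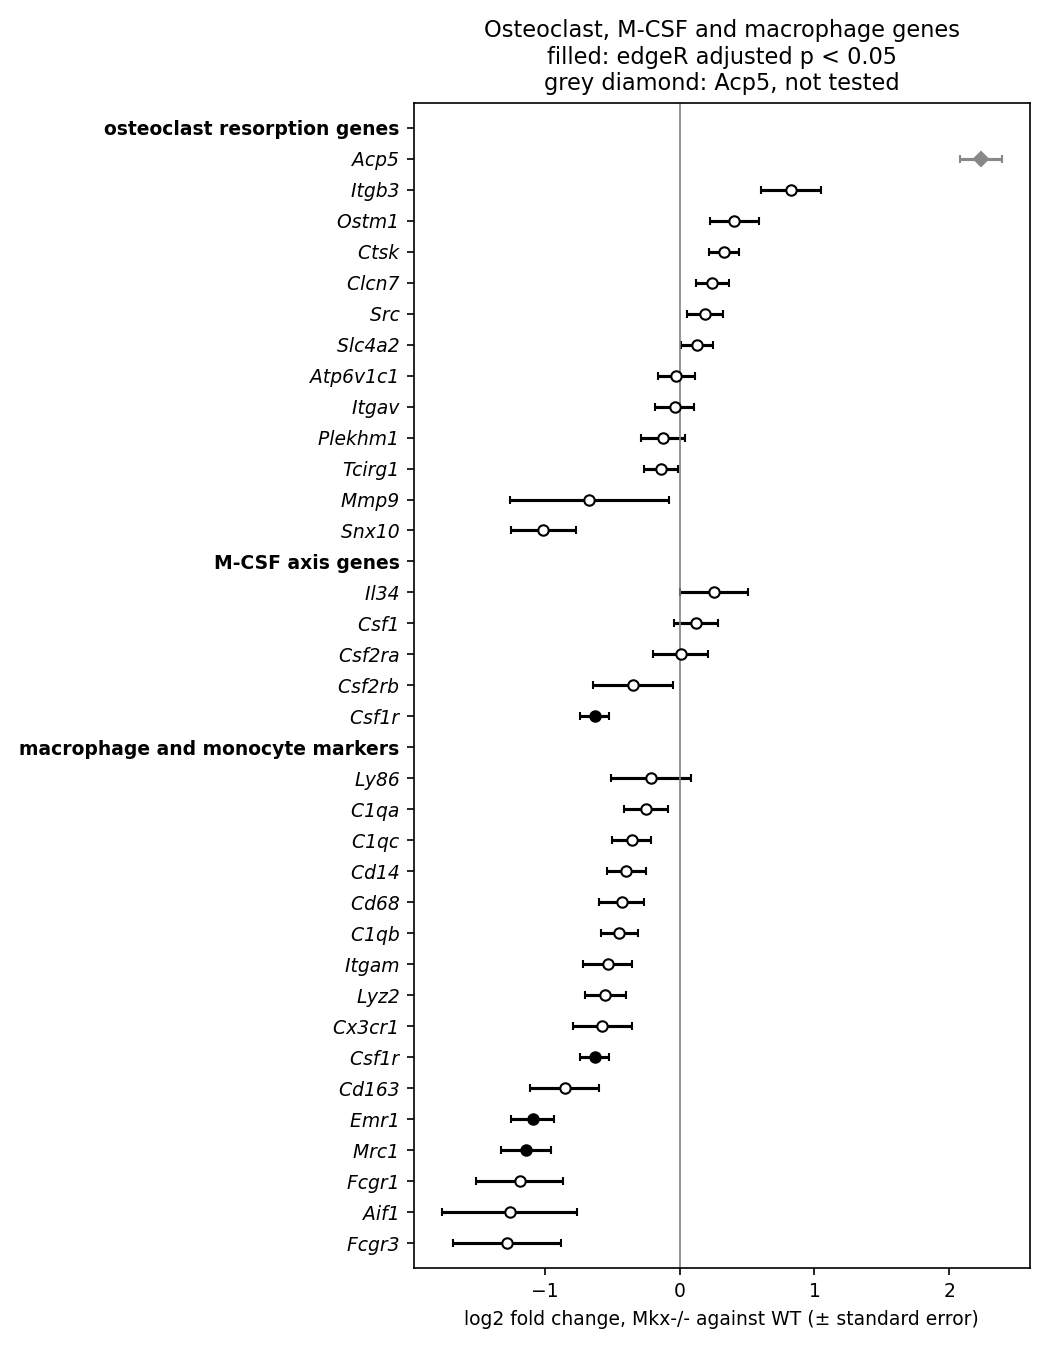
Log2 fold change of Mkx-/- against WT (horizontal axis, bars: SE) for the tested genes of the osteoclast, M-CSF and macrophage lists, with Csf1r in 2 of them. Filled circles passed edgeR's test, open circles did not, and the grey diamond is Acp5, which is not tested. Acp5 lies at 2.24, the other osteoclast genes between -1.01 and 0.82, and all 16 macrophage markers below 0 with TMM scaling, 14 with library size alone.

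Several genes of the macrophage lineage, from which osteoclasts form, fell. Of 16 macrophage and monocyte markers all 16 could be tested, 3 fell and 0 rose, with a median log2 fold change of -0.57 and all 16 below 0, or 14 when scaled by library size alone. Before adjustment, p was under 0.05 for 14 lower and 0 higher genes, and DESeq2 passed 6 as lower and 0 as higher. The summed level of the list was 768 to 797 CPM in WT and 476 to 544 CPM in *Mkx*-/- tendons. *Csf1r*, the receptor for M-CSF, was at 103, 99.5 and 107 CPM in the WT libraries and at 69.9, 66.8 and 63.0 CPM in the *Mkx*-/- libraries (log2 fold change -0.63, SE 0.11, edgeR adjusted p = 0.0173). It did not pass without WT replicates 2 and 3 (0.0591 and 0.0720) or without *Mkx*-/- replicates 2 and 3 (0.0719 and 0.0776), each left out alone, and a gene on the opposite strand overlaps it. *Emr1*, which encodes the F4/80 antigen, fell by 1.09 and *Mrc1*, the mannose receptor gene, by 1.14 on the log2 scale (edgeR adjusted p = 0.00921 and 0.0135). *Mrc1* had an adjusted p of 0.0536 without *Mkx*-/- replicate 3. The most abundant markers beside *Csf1r*, *Lyz2* and *Fcgr3*, stood at log2 fold changes of -0.55 and -1.28 and did not pass (edgeR adjusted p = 0.0728 and 0.103).

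Set against this lineage, the count ratio of *Acp5* to *Csf1r* was 0.0435, 0.0503 and 0.0443 for WT, and for *Mkx*-/- it was 0.308, 0.381 and 0.318. The ratio of *Tnfrsf11a* to *Csf1r* was 0.0244, 0.0247 and 0.0240 for WT, and for *Mkx*-/- it was 0.0118, 0.0252 and 0.0252. The first ratio follows from the choice of the group by *Acp5* and is a description. On the second, *Mkx*-/- replicate 1 lay below the WT libraries and *Mkx*-/- replicates 2 and 3 just above them. Whether fewer macrophage-lineage cells took part in the lower *Tnfrsf11a* level was not tested.

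Signalling genes downstream of RANK were counted from a list of 30, of which 27 could be tested. The median log2 fold change was 0.012, 2 genes fell and 0 rose with edgeR, and DESeq2 passed 3 as lower and 0 as higher. Before adjustment, p was under 0.05 for 5 lower and 2 higher genes. Both genes that fell encode subunits of the AP-1 factor. *Fos* was at 135, 36.1 and 90.4 CPM in the WT libraries and at 17.3 to 28.2 CPM in the *Mkx*-/- libraries (log2 fold change -1.91, SE 0.42, edgeR adjusted p = 0.0404). *Jun* was at 146, 118 and 115 CPM in WT and at 74.3, 83.8 and 75.9 CPM in *Mkx*-/- tendons (log2 fold change -0.69, SE 0.13, edgeR adjusted p = 0.0252), and a gene on the opposite strand overlaps it. *Fos* did not pass without WT replicate 3 (0.109) or *Mkx*-/- replicates 1, 2 and 3 (0.0992, 0.111 and 0.0917), and *Jun* did not without WT replicates 2 and 3 (0.0663 and 0.0599) or *Mkx*-/- replicates 1, 2 and 3 (0.0712, 0.0694 and 0.0952). The adaptor gene *Traf6* had a log2 fold change of -0.47 and *Nfkb1* one of 0.17 (edgeR adjusted p = 0.224 and 0.497).

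Among genes of the co-stimulation beside RANK, namely co-receptors, their ITAM adaptors and signalling proteins downstream, no gene passed the test. Of 11 such genes 10 were tested, with a median log2 fold change of -0.31, and 0 passed with edgeR or DESeq2. Before adjustment, p was under 0.05 for 3 lower and 0 higher genes. With scaling by library size alone, 5 of the 10 were above 0 and 5 below, where TMM gives 2 and 8. The adaptor genes *Tyrobp* (DAP12) and *Fcer1g* stood at log2 fold changes of -0.41 and -0.69 with edgeR adjusted p-values of 0.262 and 0.0933. In the M-CSF list, 5 of 8 genes were tested, *Csf1r* fell, and *Il34*, the other ligand of the same receptor, had a log2 fold change of 0.25 (SE 0.25, edgeR adjusted p = 0.608).

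Genes through which connective tissue cells act on RANKL, OPG or osteoclasts changed in both directions. Of 28 such regulators 23 could be tested, 2 rose and 4 fell, with a median log2 fold change of 0.11, and DESeq2 passed 3 and 4. Before adjustment, p was under 0.05 for 6 higher and 5 lower regulators. *Pthlh*, which encodes parathyroid hormone-related protein, an inducer of RANKL, was at 1.38 ± 0.254 CPM in WT and rose to 4.26 ± 0.518 CPM (log2 fold change 1.63, SE 0.26, edgeR adjusted p = 0.0122, and 0.0605 without WT replicate 3). *Ror2*, a receptor for Wnt5a, rose from 18.5 ± 3.98 to 32.3 ± 1.67 CPM, a difference of 0.81 on the log2 scale (SE 0.17, edgeR adjusted p = 0.0323). It did not pass without WT replicate 3 (0.112) or *Mkx*-/- replicates 1, 2 and 3 (0.0912, 0.0843 and 0.0873). The receptor gene for PTHrP, *Pth1r*, was at 42.4 to 47.8 CPM in WT and 44.8 to 57.7 CPM in *Mkx*-/- tendons (edgeR adjusted p = 0.444).

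The 2 largest decreases among these regulators were in secreted factors that restrain osteoclasts. *Wnt16*, known in bone as an inducer of OPG, had 191, 142 and 184 counts in the WT and 16, 40 and 27 in the *Mkx*-/- libraries, which is 14.6 ± 0.573 and 2.14 ± 0.672 CPM (log2 fold change -2.74, SE 0.23, edgeR adjusted p = 0.00107). *Sema3a*, which encodes semaphorin 3A, was at 45.4, 46.4 and 62.8 CPM in WT and at 18.2, 8.92 and 15.6 CPM in *Mkx*-/- tendons (log2 fold change -1.86, SE 0.26, edgeR adjusted p = 0.00714). Both passed the test whichever library was left out, and in neither did the groups overlap. *Wnt16* and *Tnfrsf11b* thus moved in opposite directions. *Lifr* and *Il11ra1*, receptors for cytokines that act through gp130, fell by 1.66 and 0.53 on the log2 scale (edgeR adjusted p = 0.0481 and 0.0478). *Il11ra1* passed in none of 6 fits, each without 1 library (0.0645 to 0.171) and overlaps other genes, and *Lifr* passed in 1 of them, without WT replicate 1 (0.0226), with up to 0.154 in the others. The inducing cytokines *Il6*, *Tnf* and *Il1b* were each below 0.5 CPM in every library, as was *Osm*. *Il11* had 0.236 to 1.36 CPM in WT and 1.56 to 2.11 CPM in *Mkx*-/- tendons, and the groups did not overlap. Its log2 fold change of 1.37 (SE 0.52) did not pass the test (edgeR adjusted p = 0.163). *Lif* overlapped between the genotypes (log2 fold change 0.11, edgeR adjusted p = 0.932).

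**Figure D4:**
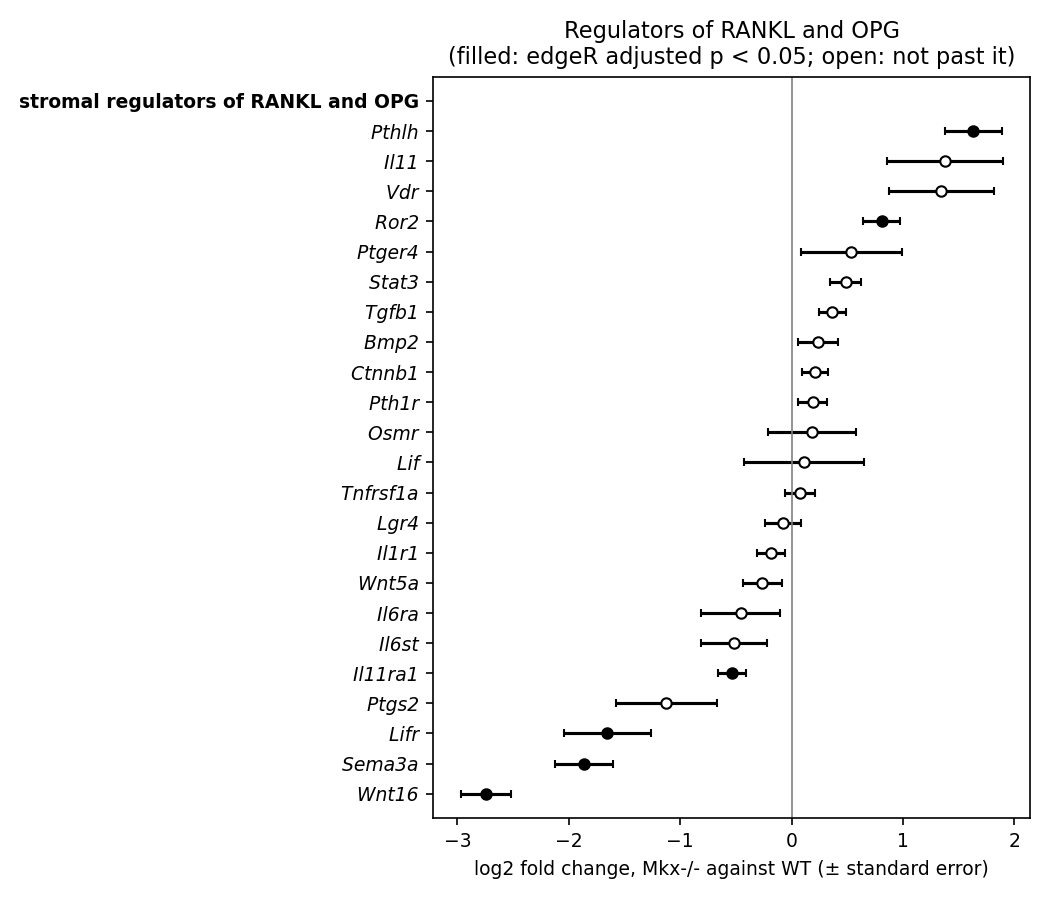
Log2 fold change of Mkx-/- against WT (horizontal axis, bars: SE) of the 23 tested genes listed as regulators of RANKL, OPG or osteoclasts. Filled circles passed edgeR's test at an adjusted p under 0.05: Pthlh and Ror2 to the right, and Il11ra1, Lifr, Sema3a and Wnt16 to the left, the last at -2.74.

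Relatives of the members were used to see how far the changes extended within their families. Of 6 other acid phosphatase genes 4 were tested and 0 passed with edgeR, 2 were lower and 0 higher at an unadjusted p under 0.05, and DESeq2 passed 1 as lower. The lysosomal *Acp2* had a log2 fold change of 0.066 (SE 0.13). Of 16 cathepsins and cystatins beside *Ctsk*, 13 were tested and 0 passed with edgeR, with 4 higher and 3 lower at an unadjusted p under 0.05 and 1 lower with DESeq2. *Cst3*, the secreted inhibitor cystatin C, was at 487 to 625 CPM in WT and 591 to 764 CPM in *Mkx*-/- tendons (edgeR adjusted p = 0.338). Among 23 receptors related to RANK and OPG, 16 were tested, *Tnfrsf25* rose and *Tnfrsf19* and *Tnfrsf26* fell, by log2 values of 0.86, -2.25 and -2.07 (edgeR adjusted p = 0.0369, 0.00620 and 0.0273). *Tnfrsf19* passed whichever library was left out. *Tnfrsf25* passed in none of those 6 fits (0.0592 to 0.126), and *Tnfrsf26* did not pass without WT replicate 3 (0.105) or *Mkx*-/- replicates 1, 2 and 3 (0.0712, 0.0692 and 0.0980). Of 17 ligands related to RANKL, 7 were tested and 0 passed with edgeR or DESeq2, with 1 higher and 0 lower at an unadjusted p under 0.05.

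Over the osteoclast, RANK, ITAM, M-CSF and regulator lists together, 90 genes other than the members were listed and 74 were tested. Of these 2 rose and 7 fell, 12.2% of those tested, against 5.44% of all genes in either direction. The lists were chosen with earlier results of these data known, so this share is a description and no test of the pathway. The split depended on the fit, with 7 higher and 3 lower when scaled by library size alone, and 4 and 9 with DESeq2. Leaving out any single library gave 0 to 4 higher and 2 to 6 lower.

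Markers of other cell types that the tissue could hold were counted in the same way. Of 11 osteoblast and osteocyte markers 3 could be tested and 0 passed with edgeR, with 2 higher and 0 lower at an unadjusted p under 0.05 and 1 higher with DESeq2. Their summed level was 4.02 to 6.57 CPM in WT and 7.80 to 8.40 CPM in *Mkx*-/- tendons, with the osteocyte marker *Mepe* at 0 counts throughout. *Runx2* (0.481 to 0.788 CPM in WT, 1.19 to 2.53 in *Mkx*-/-) and *Alpl* (0.551 to 1.84 and 2.53 to 3.73) were separate and higher. *Bglap*, *Sp7* and *Ibsp* overlapped between the genotypes. *Dmp1* had 2, 3 and 4 counts in the WT and 0, 1 and 0 in the *Mkx*-/- libraries. Of 11 chondrocyte markers 7 were tested and *Acan* and *Matn3* rose, also with DESeq2, while *Col2a1* and *Hapln1* stood at log2 fold changes of -0.084 and -0.22 and did not pass. For 3 higher and 0 lower chondrocyte markers p was under 0.05 before adjustment. The summed chondrocyte level overlapped between the genotypes, at 540 to 1074 CPM in WT and 751 to 1245 CPM in *Mkx*-/- tendons. Of 12 endothelial markers, all tested, *Erg* rose with edgeR, 5 were higher with DESeq2, and 7 were higher at an unadjusted p under 0.05. The summed endothelial level was 78.9 to 96.8 CPM in WT and 130 to 202 CPM in *Mkx*-/- tendons. *Erg* made up part of this difference, at 6.78 to 9.69 CPM in WT and 26.9 to 44.1 CPM in *Mkx*-/- tendons. *Mkx*-/- replicate 3 had the highest sum, with *Pecam1* at 27.5 and *Vwf* at 38.7 CPM. In *Mkx*-/- replicates 1 and 2 these were at 8.88 and 9.27 CPM and at 13.2 and 20.4 CPM. Of the 12 log2 fold changes 10 were above 0 and 2 below. Of 12 skeletal muscle markers, all tested, *Tnnt3*, *Tnnc2* and *Tnni2* rose with edgeR, 7 were higher with DESeq2, and 11 were higher at an unadjusted p under 0.05. Their summed level was 98.1 to 376 CPM in WT and 529 to 2670 CPM in *Mkx*-/- tendons. Each of these muscle genes passed in 2 of 6 fits without 1 library. Of 8 tendon markers *Thbs4* rose and *Mkx* fell with edgeR, and DESeq2 passed 1 as higher and 4 as lower. *Thbs4* passed in 4 of those fits and *Mkx* in 6. Of 11 neutrophil markers 1 could be tested, and 0 passed with edgeR or DESeq2 or at an unadjusted p under 0.05. The part of these cell types in the levels of *Acp5* and *Tnfrsf11b* was not tested.

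The genes whose pattern over the 6 libraries was most like that of *Acp5* were *Kcnj15*, *Rgs11*, *Sod3*, *Lynx1* and *Specc1*, with Pearson correlations of log2 CPM between 0.995 and 0.999. The libraries fall into 2 genotypes, so any gene that separates them scores high, and 4.15% of the other 14549 tested genes had a correlation above 0.9. On the same measure *Ctsk* had 0.953, *Tnfrsf11b* 0.922, *Csf1* 0.389, *Mmp9* -0.465 and *Tnfrsf11a* -0.811.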

How the data were processed

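Bulk RNA-seq libraries of tail tendon, 3 per genotype, were analysed. The authors sequenced libraries on the Ion Proton system, removed adaptor and low-quality reads, aligned the rest to mm9 with MapSplice 2.1.6 and deposited raw counts per gene symbol. The counting program, its strand setting and its treatment of multiply matching reads are not given in the sources used here. Each of the 6 columns carried a sample's title, and 0 were left unused. Coordinates and exon lengths came from the GENCODE annotation of mm9. Promoter windows came from RefSeq (GRCm38.p6), where 5 of the 8 genes matched. The 3 others, *Mmp9*, *Tnfrsf11b* and *Dcstamp*, had no entry there.

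From the deposited counts, edgeR 4.0.16 (R 4.3.3) gave the log2 fold changes (TMM, filterByExpr, genotype alone, prior count 0.125). Each SE is an approximate value, the absolute log2 fold change divided by the square root of the F statistic of edgeR's test. For *Acp5* it is part of the description and not a test. DESeq2 1.42.0, RLE, upper-quartile and library-size scaling, filters of 1 count in any or 10 counts in every library, a robust fit, the replicate block and each library left out were alternatives. The study's own rule added an absolute log2 fold change above 1. With 3 libraries per group, the smallest two-sided p of an exact permutation test is 0.1. The fits were tested on simulated data. The 8 genes and all lists were chosen with earlier results of these data known. The text names the members, at most 5 list genes past the test in each direction with the smallest p, osteoclast-defining markers, abundant macrophage markers and the 5 genes most like *Acp5*. Genes given as examples, such as *Snx10*, *Tcirg1*, *Mitf* and *Traf6*, were named after their values were seen. Within genotypes, chi-square per degree of freedom between libraries was 7.59 to 36.4, so none was the same library sequenced again. This value cannot show whether libraries shared an animal or an RNA sample. The levels of 1 marker list are not reported here.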

Additional observations from a re-analysis of the deposited data

How the results depend on the processing

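The 6 tested members kept their direction under every alternative listed in the methods, and *Csf1* turned to -0.064 (edgeR adjusted p = 0.873) when both libraries with neutrophil markers were left out, an alternative chosen after seeing the data. With library size as the only scaling, the median log2 fold change of all genes was 0.25. Under it *Acp5* was at 2.49 and *Ctsk* passed the threshold at 0.59 (0.0263), values that include this shift. The replicate numbers showed no clear pairing of the samples. Deviations of same-numbered libraries correlated at 0.026, -0.21 and 0.30, and 3 of the 6 libraries correlated best with their own number. With 3 libraries per group these correlations cannot exclude a pairing. With the replicate block *Tnfrsf11b* was at 1.09 and not past the threshold (0.0609), 264 genes were higher and 170 lower, and of the pathway genes 1 was higher and 3 lower.

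In the fits leaving out a library, *Tnfrsf11b* ranged from 0.89 to 1.20. Against 463 genes higher and 329 lower, these fits gave 117 to 539 higher and 127 to 439 lower, and of the pathway genes 0 to 4 higher and 2 to 6 lower (2 and 7 with all libraries). The lowest counts of genes came without WT replicate 3, and those without WT replicate 2, *Mkx*-/- replicate 2 and *Mkx*-/- replicate 3 were also below the full fit by over 1.5 times, as was the lower count without *Mkx*-/- replicate 1. DESeq2 gave 787 higher and 588 lower, library size only 1358 and 197, a filter of 1 count in any library 970 and 594, and the added fold threshold 275 and 193. Of the pathway genes, library size only gave 7 higher and 3 lower, DESeq2 4 higher, the filter of 1 count 4 higher, and leaving out both libraries with neutrophil markers 6 higher. The cause was not tested. *Mmp9* and *Tnfrsf11a* have no value with 10 counts in every library, and no alternative gives a RANKL to OPG ratio. At 8 to 73 counts, *Tnfrsf11a* and *Mmp9* carry a large counting error.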
